A study of Mus musculus with 24 samples.

Results

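The Rab family of small GTPases was followed through every comparison of the series. Members were taken as each row of the count table whose gene symbol is Rab, then a number, then at most one letter from a to d. The rule found 57 of the 24079 genes in the table, and it used no measured value. The deposited symbol Rab1 is the gene now called Rab1a.

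Rab proteins are membrane switches. A guanine nucleotide exchange factor (GEF) loads a Rab with GTP on a given membrane, effectors such as tethers, motors and sorting proteins then bind it, and a GTPase-activating protein (GAP) ends the signal. The GDP form is carried through the cytosol by GDP dissociation inhibitors (GDI), and lipid groups added to cysteines at the end of the protein anchor it to membranes. In striatal neurons Rab proteins are best known for synaptic vesicle release, for the recycling of receptors through endosomes and as substrates of LRRK2, the kinase mutated in familial Parkinson's disease.

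The study compared homozygous rpS6 knockin mice (rpS6P-/-), in which all phosphorylatable serines of ribosomal protein S6 are replaced by alanine, with their wild-type littermates on a mixed C57Bl/6/Sv129/ICR background, both sexes included and no treatment given. The dorsal striatum (DS) and the ventral region, the nucleus accumbens (Acb), were dissected, pooled over mice and lysed, and RNA was sequenced from the whole lysate and from heavy polysomal fractions, which hold mRNAs carrying more than 4 ribosomes according to the labels. Region, genotype and kind of RNA gave 8 groups of 3 libraries, 24 in all, with 9280589 to 34703044 reads assigned to genes per library. Read counts per gene cannot check the genotype, because the knockin changes single residues. Levels are given as CPM, read counts relative to the size of the library after TMM scaling, and differences as log2 fold changes with their standard error. A member was called when its adjusted p in edgeR's quasi-likelihood test, with Benjamini-Hochberg adjustment over all genes tested, was under 0.05.

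Marker genes of several cell types were read in the libraries. The 9 markers of medium spiny neurons, the output neurons of the striatum, summed to 3952 to 7236 CPM in each library and none was at 0. In bulk tissue, fewer cells of a type and less RNA per cell cannot be told apart. Markers of cortical excitatory neurons, whose tissue lies next to the DS, summed to 741 to 1013 CPM in the 12 DS libraries and to 65.3 to 209 CPM in the 12 Acb libraries. The 6 markers of endothelial cells summed to only 4.72 to 23.5 CPM over the 24 libraries.

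Because the main contrast is ribosome loading, the start codon contexts of the called members with the largest differences between fractions in the wild-type Acb, among those with at least 50 reads on average, are shown first, with those of the 2 most abundant members. Each run gives 12 bases before and 6 bases from the start codon on. Capitals mark the start codon, the base at position -3 and the base at position 4, counted with the A of the start codon as 1. These are the positions where a purine and a G are known to favour recognition of the start codon. Positions are of the start codon on GRCm38, from GENCODE M21.
Rab33a, chrX:48519601-48519603, plus strand: tgtcccgggGagATGGca
Rab7, chr6:88013688-88013690, minus strand: tgcgcttcaAggATGAcc
Rab9, chrX:166458311-166458313, minus strand: acattattaAtaATGGca
Rab5c, chr11:100720078-100720080, minus strand: gagcagcgcGccATGGcg
Rab39b, chrX:75578005-75578007, minus strand: caggccactGccATGGag
Rab28, chr5:41707977-41707979, minus strand: tcctcggacAccATGTca
Rab15, chr12:76822315-76822317, minus strand: tgagtccctGccATGGcg
Rab3a, chr8:70755856-70755858, plus strand: cgcctcccgCagATGGct
Rab6b, chr9:103112157-103112159, plus strand: gctgccagcAccATGTcc
Of the contexts printed, that of Rab3a, a member called higher in heavy polysomal fractions, had a C at -3, and the others had a purine, for members called higher and for those called lower. Over the family, 51 of 57 members (89.5%) had A or G at -3, against 84.4% of 19887 coding genes. A G at position 4 stood in 32 of 57 members (56.1%), against 49.3% of coding genes.

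The ends of the coding sequences hold the sites of lipid attachment. The last 30 coding bases before the stop codon are printed for members at either end of the fraction comparison, with cysteine codons in capitals.
Rab7: gccaaggcctccgcagaaagcTGCagtTGT
Rab9: cgaaagcccaagccaaactcatctTGCTGT
Rab15: ccagcaaactcttcaaagaccTGCtggTGC
Rab28: tctgctcagagtagagtcTGTtcagtacag
In 52 of 57 members this stretch held 2 cysteine codons or more, the sites of geranylgeranylation in most Rab proteins. Rab28 was among the 5 members with 1 cysteine codon, and is known to be modified by a farnesyl group. The coding sequences of the family were short, with a median of 648 bases against 1203 for all coding genes, and 47 of 57 lay within 10% of that median.

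Levels of different members were compared per length, in CPM per kilobase of the longest coding transcript. Rab3a, the main Rab of synaptic vesicles, had the highest level, with a mean of 361 CPM per kilobase over the 24 libraries and a range of 204 to 620. The Golgi Rabs Rab6b and Rab6a followed at 222 (136 to 359) and 207 (121 to 338) CPM per kilobase, and Rab2a, of traffic between the ER and the Golgi, at 191 (115 to 353). Ranges of these neighbours overlapped, so their order is a description. Rab1 (123), Rab14 (113), Rab3c (94.8), Rab5a (91.5), Rab1b (83.1) and Rab7 (75.4 CPM per kilobase) completed the 10 highest. With the median length of a gene's transcripts in place of the longest, Rab3a and Rab6b stayed highest and Rab3c moved to the third place, at 334 CPM per kilobase.

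A few members were near or at the limit of detection. Rab17, an epithelial Rab, had 0 reads in every library. Rab19, Rab25 and Rab44 had 13, 16 and 19 reads over all 24 libraries, and Rab20 had 82. These 5 were named after their values were seen. Rab17, Rab19 and Rab25 reached the minimum of 15 reads in no comparison, Rab44 in 1 of 16 and Rab20 in 10.

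The comparison of heavy polysomal fractions with whole lysates asks how ribosome-loaded each mRNA was relative to the other mRNAs of the same cells. Rab mRNAs were mostly higher in heavy polysomal fractions. Summed over the family, the level in the wild-type Acb was 5717 to 5927 CPM in whole lysates and 8369 to 9533 CPM in heavy polysomal fractions. In the wild-type DS it was 6574 to 7215 CPM in whole lysates and 9624 to 11335 CPM in heavy polysomal fractions, again without overlap.

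In the wild-type Acb, 32 of 53 members tested were called higher in heavy polysomal fractions (60.4%), against 13% of the 16043 genes tested. Rab28 and Rab15, 2 members, were called lower, against 12.9% of genes. The median log2 fold change was 0.58 over the members and 0.03 over all genes. In the wild-type DS, 30 of 53 were called higher and the same 2 lower, against 12.8% and 11.5% of genes, with a median of 0.62 over the members and 0.00 over all genes. Called higher in both regions were 28 members, a count not made over all genes. TMM scaling sets each library against all its genes, so these values are relative to other mRNAs and are not the share of an mRNA found on polysomes. Marker sums moved between fractions as well, from 4030 to 4331 CPM in whole lysates to 5510 to 6681 CPM in heavy polysomal fractions of the wild-type Acb for medium spiny neurons, of whose 9 markers 4 were called higher and 2 lower, and their part in the counts was not tested.

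**Figure D1:**
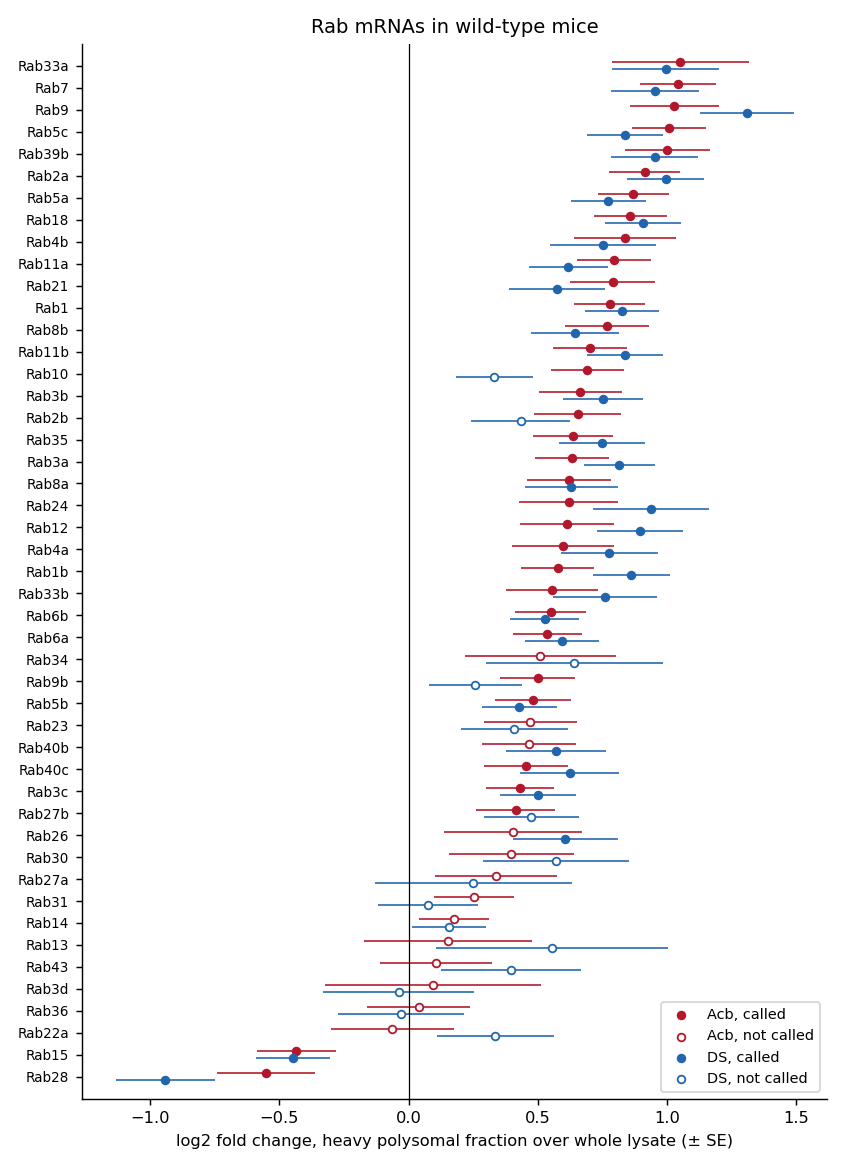
Log2 fold change of each Rab mRNA in wild-type mice, heavy polysomal fraction over whole lysate (horizontal axis), with bars for the standard error, 3 libraries per group. Red points are the Acb and blue points the DS, filled where called, for the 47 members with at least 50 reads on average in both comparisons, and most points lie to the right of 0, with filled points to the left for Rab15 and Rab28 alone.

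The genes of late endosomes gave some of the largest differences. Rab9, which returns receptors from late endosomes to the Golgi, measured 27.7, 36.8 and 39.2 CPM in whole lysates of the wild-type Acb and 73.0, 69.3 and 76.2 CPM in heavy polysomal fractions. In the wild-type DS it measured 33.5, 34.3 and 28.8 CPM in whole lysates and 88.7, 81.2 and 70.4 CPM in heavy polysomal fractions. The fractions did not overlap in either region. Its log2 fold change was 1.03 ± 0.17 in the Acb (SE, adjusted p 5.83e-05, edgeR) and 1.31 ± 0.18 in the DS (adjusted p 2.74e-06, edgeR), or 2.04-fold and 2.48-fold.

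Rab7, the switch that drives late endosomes towards fusion with lysosomes, measured 114, 91.6 and 112 CPM in whole lysates of the wild-type Acb. Its heavy polysomal level there was 204, 241 and 233 CPM, again with no overlap. The log2 fold change was 1.04 ± 0.15 in the Acb (adjusted p 7.53e-06, edgeR) and 0.95 ± 0.17 in the DS (adjusted p 9.56e-05, edgeR). Of the 50-base words in the Rab7 transcript, 14.4% also occur in transcripts of other genes on the same strand, so part of its reads may be shared with near-identical copies.

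**Figure D2:**
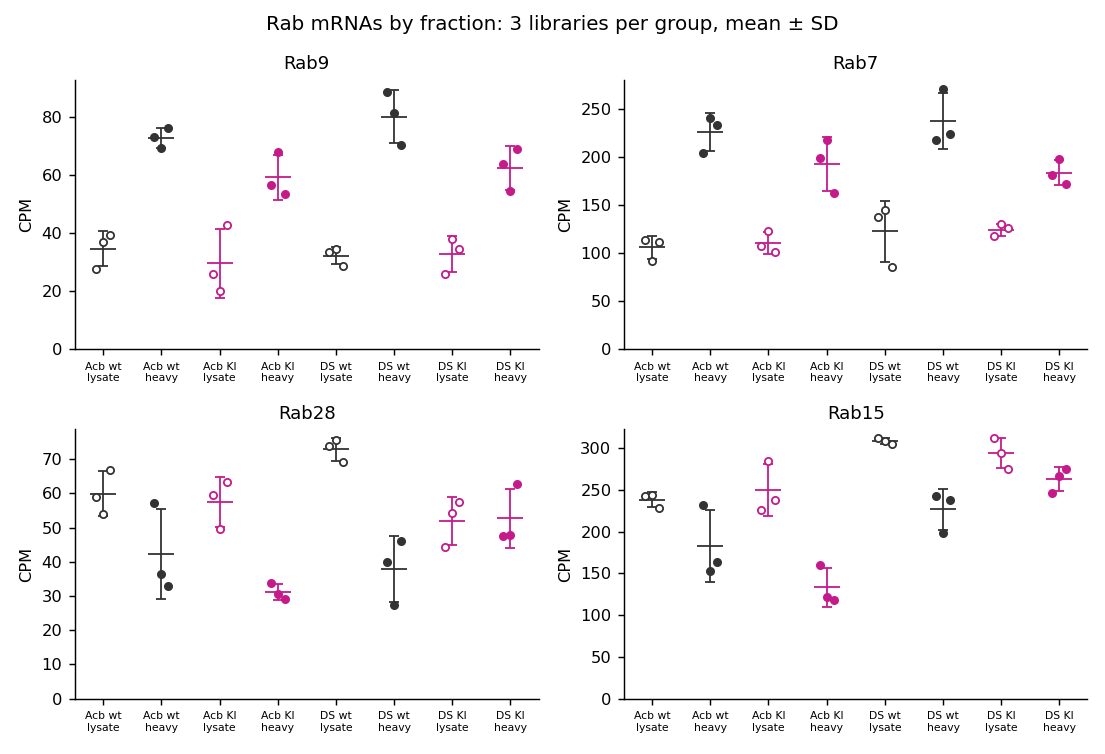
Levels in CPM of Rab9, Rab7, Rab28 and Rab15 (vertical axes, starting at 0) in the 8 groups, open points for whole lysates and filled points for heavy polysomal fractions, black for wild-type and magenta for knockin, with horizontal bars and whiskers for the mean ± SD of 3 libraries. Rab9 and Rab7 were higher in heavy polysomal fractions in every group, whereas Rab28 and Rab15 were lower there in 3 of the 4 comparisons, with groups apart in the knockin Acb and the wild-type DS, and overlapped between fractions in the knockin DS.

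Other members with the largest differences belong to early endosomes and the Golgi. Rab5c, a regulator of early endosome fusion, was at 101, 96.5 and 86.8 CPM in whole lysates and at 208, 196 and 191 CPM in heavy polysomal fractions of the wild-type Acb. The log2 fold change was 1.01 ± 0.14 (adjusted p 8.13e-06, edgeR). Rab39b, a neuronal Rab mutated in X-linked intellectual disability, was at 69.7, 82.0 and 50.8 CPM in whole lysates and at 136, 127 and 159 CPM in heavy polysomal fractions there. Both genes were separated without overlap. For Rab39b the log2 fold change was 1.003 ± 0.166 in the Acb and 0.95 ± 0.17 in the DS (adjusted p 5.21e-05 and 7.81e-05, edgeR).

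Rab33a, a Golgi and secretory vesicle Rab of neurons, had low levels, 7.21, 10.9 and 17.7 CPM in whole lysates and 24.4, 23.6 and 27.7 CPM in heavy polysomal fractions of the wild-type Acb. The fractions did not overlap, and the log2 fold change was 1.05 ± 0.26 (adjusted p 0.00366, edgeR). With a trend on transcript length removed from each library it was 0.67 and no longer called (adjusted p 0.0558, edgeR). Rab2a, which acts between the ER and the Golgi, measured 334, 290 and 306 CPM in whole lysates of the wild-type DS and 753, 529 and 575 CPM in heavy polysomal fractions, with no overlap. Its log2 fold change there was 0.996 ± 0.149 (adjusted p 8.99e-06, edgeR), and that of Rab33a was 0.996 ± 0.207 (adjusted p 0.000499, edgeR). The call of Rab33a in the DS was lost as well with the length trend removed (0.56, adjusted p 0.0543, edgeR).

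Rab28 and Rab15 went the other way. Rab28, a Rab of cilia and photoreceptors, measured 73.8, 75.7 and 69.1 CPM in whole lysates of the wild-type DS and 40.0, 27.4 and 46.2 CPM in heavy polysomal fractions. The fractions were apart, and the log2 fold change was -0.94 ± 0.19 (adjusted p 0.000386, edgeR). In the wild-type Acb it measured 59.1, 53.9 and 66.9 CPM in whole lysates and 57.3, 36.6 and 33.0 CPM in heavy polysomal fractions. Here the fractions overlapped, through the first heavy polysomal library, and the log2 fold change was -0.55 ± 0.19 (adjusted p 0.0326, edgeR).

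Rab15, which acts in recycling endosomes, measured 243, 244 and 229 CPM in whole lysates of the wild-type Acb and 232, 153 and 164 CPM in heavy polysomal fractions, which overlapped. In the wild-type DS it measured 312, 309 and 305 CPM against 243, 199 and 238 CPM, without overlap. The log2 fold changes were -0.43 ± 0.15 and -0.45 ± 0.14 (adjusted p 0.0381 and 0.0210, edgeR). In the Acb both calls were lost when single libraries were left out. The adjusted p of Rab28 rose to between 0.0920 and 0.177 without wild-type whole lysate 1 or 3 or wild-type heavy polysomal library 2 or 3, and that of Rab15 to between 0.0604 and 0.143 without any of these or without whole lysate 2 (edgeR). In the DS the call of Rab15 was lost without any 1 of the 3 whole lysates, with adjusted p of 0.0624 to 0.0793 (edgeR), and with the trend on transcript length removed (-0.42, adjusted p 0.0518, edgeR).

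By role, members called higher were found in every group, against a background of 13% of all genes in the wild-type Acb and 12.8% in the DS. Of other genes of like coding length, 32.1% and 32.9% were called higher. Of the 14 Rabs of the ER and Golgi (Rab1, Rab1b, Rab2a, Rab2b, Rab6a, Rab6b, Rab18, Rab30, Rab33a, Rab33b, Rab36, Rab39, Rab39b and Rab43), 10 were called higher in heavy polysomal fractions of the wild-type Acb and 9 in the DS, with none lower and medians of 0.57 and 0.68. Rab1, needed for transport out of the ER, was at 240, 216 and 274 CPM in whole lysates and 427, 432 and 439 CPM in heavy polysomal fractions of the wild-type Acb. Its paralog Rab1b had log2 fold changes of 0.58 ± 0.14 and 0.86 ± 0.15 in the Acb and DS, and Rab1 of 0.78 ± 0.14 and 0.83 ± 0.14. Rab6a and Rab6b, of retrograde traffic to the Golgi, gave 0.54 ± 0.13 and 0.55 ± 0.14 in the Acb, all called in both regions.

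Of the 8 Rabs of regulated secretion (Rab3a, Rab3b, Rab3c, Rab3d, Rab26, Rab27a, Rab27b and Rab37), 4 were called higher in each region and none lower, with medians of 0.42 and 0.56. Rab3a was at 318, 354 and 452 CPM in whole lysates and 610, 626 and 569 CPM in heavy polysomal fractions of the wild-type Acb, and at 494, 526 and 478 against 898, 965 and 775 CPM in the wild-type DS. The fractions were apart in both regions, with log2 fold changes of 0.63 ± 0.14 and 0.82 ± 0.14. Rab3b and Rab3c, its paralogs, were called as well (0.67 ± 0.16 and 0.43 ± 0.13 in the Acb), whereas Rab3d gave 0.10 ± 0.42 and was not called. Rab27b, of dense vesicle docking, was called in the Acb (0.42 ± 0.15), and the values of its paralog Rab27a were 0.34 ± 0.24 in the Acb and 0.25 ± 0.38 in the DS, not called.

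Early endosome Rabs numbered 8 (Rab5a, Rab5b, Rab5c, Rab17, Rab20, Rab21, Rab22a and Rab31), of which 7 were tested and 4 called higher in each wild-type region. All 3 Rab5 paralogs were among them in both regions, with log2 fold changes in the Acb of 0.87 ± 0.14 for Rab5a, 0.48 ± 0.15 for Rab5b and 1.01 ± 0.14 for Rab5c. Recycling endosome Rabs numbered 8 as well (Rab4a, Rab4b, Rab11a, Rab11b, Rab14, Rab15, Rab25 and Rab35), and 5 of the 7 tested were called higher in each region, with Rab15 lower. Rab11a and Rab11b, the paralogs of slow recycling, gave 0.80 ± 0.15 and 0.70 ± 0.14 in the Acb. Rab14, of traffic between the Golgi and endosomes, was not called, with 0.18 ± 0.14 in the Acb and 0.16 ± 0.14 in the DS.

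Among the 6 Rabs of late endosomes, lysosomes and related organelles (Rab7, Rab9, Rab9b, Rab24, Rab32 and Rab38), 4 were called higher in the wild-type Acb and 3 in the DS, and none lower. Among the 7 of exocytic and polarised traffic (Rab8a, Rab8b, Rab10, Rab12, Rab13, Rab23 and Rab34), 4 and 3 were called higher and none lower. Each member was placed in a single group, although Rab12, for example, also acts between recycling endosomes and lysosomes. The remaining 6 were of other or less known roles (Rab19, Rab28, Rab40b, Rab40c, Rab42 and Rab44). Of these, 4 were tested in each region, with 1 called higher in the Acb and 2 in the DS, and Rab28 lower. Rabs that LRRK2 is known to phosphorylate are spread over these groups, and 11 of 13 were called higher in the Acb and 10 of 13 in the DS, with medians of 0.63 and 0.65, against 13% and 12.8% of all genes called higher and 32.1% and 32.9% of other genes of like coding length.

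The members were set beside other genes with short coding sequences. Of the 1637 other genes with a coding sequence of 600 to 841 bases, the range between the 5th and 95th percentile of the members, 32.1% were called higher in heavy polysomal fractions of the wild-type Acb and 2.57% lower, with a median of 0.50. In the wild-type DS the shares were 32.9% and 1.65% of 1579 genes, with a median of 0.52. The medians of the members, 0.58 and 0.62, lay 0.10 or less above those of genes of like coding length, and the share called higher lay above theirs. Those genes were not matched to the members for read depth, on which the share called depends. The part of coding length in the counts of members was not tested. With a trend on whole transcript length removed from each library, 26 members were called higher and 2 lower in the Acb, and 28 and 1 in the DS. The median transcript length was 2827 bases for members and 2800 for coding genes, so this setting does not address coding length. The share of all genes called under it is not given.

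**Figure D3:**
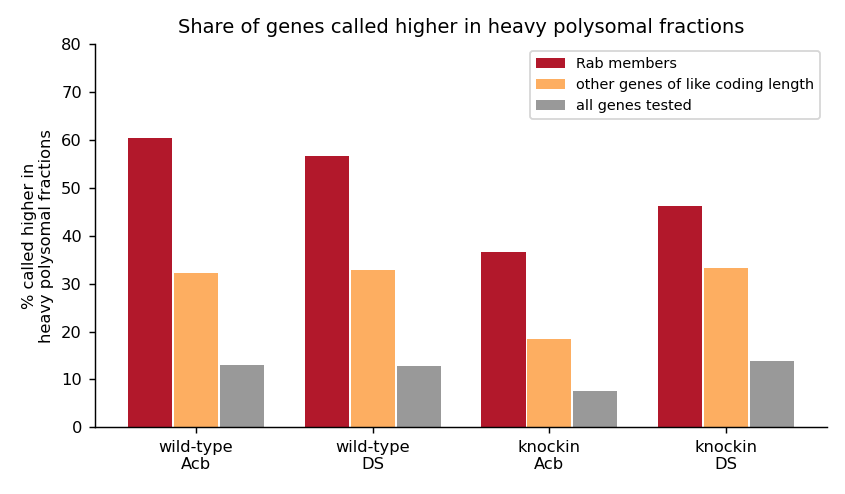
Percentage of genes called higher in heavy polysomal fractions than in whole lysates (vertical axis) in the 4 comparisons, as bars for the Rab members tested (red), other genes with a coding sequence of 600 to 841 bases (orange) and all genes tested (grey). In the wild-type Acb the bars stand at 60.4%, 32.1% and 13%, and the order is the same in all 4 comparisons. The genes of like coding length were not matched to the members for read depth.

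In knockin mice Rab mRNAs were again mostly higher in heavy polysomal fractions. In the knockin Acb, 19 of 52 members tested were called higher in heavy polysomal fractions and 3 lower, against 7.7% and 9.5% of genes, and the median was 0.38. In the knockin DS, 24 of 52 were called higher and 0 lower, against 13.8% and 14.8% of genes, with a median of 0.51. Called higher in all 4 comparisons of fractions were 11 members, namely Rab1, Rab2a, Rab3a, Rab3b, Rab4b, Rab5a, Rab5c, Rab7, Rab9, Rab11a and Rab18. The log2 fold change was above 0 in all 4 for 38 members. Neither count was made over all genes or over genes of like coding length, so how unusual they are was not tested. Of other genes with like coding length, 18.4% were called higher in the knockin Acb and 33.2% in the knockin DS, with medians of 0.32 and 0.50. With the trend on transcript length removed, the median of the members in the knockin DS was 0.37. The count in the knockin Acb depended on single libraries, falling from 22 to 12 without heavy polysomal library 2, to 13 without whole lysate 2 and to 14 without whole lysate 1.

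Rab9 had the largest difference of the members called in the knockin Acb, at 25.7, 20.04 and 42.7 CPM in whole lysates and 56.4, 67.9 and 53.3 CPM in heavy polysomal fractions. The fractions were apart, and the difference was 0.98 ± 0.23 on the log2 scale (adjusted p 0.00364, edgeR). Rab4b, of fast recycling, followed at 17.4, 14.8 and 15.9 against 34.5, 28.7 and 21.7 CPM, without overlap. Its log2 fold change was 0.79 ± 0.24 (adjusted p 0.0235, edgeR). The endosomal Rabs Rab7 and Rab5a and the ER Rab Rab1 came next, with 0.78 ± 0.17, 0.76 ± 0.16 and 0.76 ± 0.15. Without any 1 library except heavy polysomal library 3 the adjusted p of Rab4b was 0.0520 to 0.161 (edgeR). With the trend on transcript length removed it was 0.0768 (edgeR). Of the 50-base words of the Rab4b transcript, 80.3% also occur in transcripts annotated to other genes on the same strand.

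Rab15 and Rab28 were again lower in the knockin Acb. Rab15 measured 226, 285 and 238 CPM in whole lysates and 160, 121 and 119 CPM in heavy polysomal fractions, with no overlap. The log2 fold change was -0.93 ± 0.17 (adjusted p 0.000288, edgeR). Rab28 measured 59.4, 49.5 and 63.5 against 33.7, 30.6 and 29.1 CPM, also apart, with a log2 fold change of -0.91 ± 0.19 (adjusted p 0.00154, edgeR). In the knockin DS neither was called, with log2 fold changes of -0.20 for Rab15 and -0.02 for Rab28. Rab31, of early endosomes, was the third member called lower in the knockin Acb, at 98.6, 77.2 and 68.9 CPM in whole lysates and 70.6, 54.4 and 36.4 CPM in heavy polysomal fractions, which overlapped. Its log2 fold change was -0.63 ± 0.21 (adjusted p 0.0354, edgeR), with adjusted p of 0.0684 to 0.204 (edgeR) without whole lysate 1 or 2 or heavy polysomal library 2 or 3.

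In the knockin DS, of the called members with at least 50 reads on average, Rab33a had the largest difference, at 16.4, 14.6 and 22.5 CPM in whole lysates and 35.2, 37.2 and 50.1 CPM in heavy polysomal fractions. The fractions did not overlap (log2 fold change 1.16 ± 0.21, adjusted p 1.68e-05, edgeR). Rab4a, of fast recycling, Rab24, of autophagy, and Rab12, of recycling endosomes to lysosomes, had log2 fold changes of 0.92 ± 0.18, 0.91 ± 0.18 and 0.78 ± 0.15 there. All 3 were called, with adjusted p of 6.26e-05, 4.98e-05 and 2.51e-05 (edgeR), as was Rab9 with 0.90 ± 0.18 (adjusted p 6.32e-05, edgeR). With the trend on transcript length removed, Rab4a, Rab24 and Rab9 were no longer called there (adjusted p 0.0663, 0.138 and 0.0656, edgeR).

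The ratio of heavy polysomal fractions to whole lysates was tested between genotypes by an interaction term. It was called for 0 of 54 members in the Acb and 0 of 53 in the DS, where 0% and 0% of all genes were called. The study, with another tool (Xtail), reported genes whose ratio differed between genotypes in both regions. At an unadjusted p under 0.05, edgeR gave 8 and 4 members (14.8% and 7.55%, against 11.9% and 4.90% of all genes), and DESeq2 called 0 and 0. Without knockin heavy polysomal library 1, Rab31 was called in the Acb (interaction -1.10, adjusted p 0.0388, edgeR). The same ratio between regions of wild-type mice, tested in the same way, was called for 0 of 53 members and 0% of genes, with 0 members at an unadjusted p under 0.05 and 0 by DESeq2.

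The comparison of regions asks which members differ between the ventral and the dorsal striatum. In whole lysates of wild-type mice, 2 of 52 members were called higher in the Acb and 7 lower, against 6.54% and 6.15% of genes. In heavy polysomal fractions, 2 of 53 were called higher and 5 lower, against 4.72% and 3.43% of genes. Rab9b and Rab27b were higher in the Acb in both, and Rab26, Rab33a, Rab3a, Rab3d and Rab6b lower in both. Rab6a and Rab15 were called lower in whole lysates alone, which does not show that they differ between fractions.

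The same groups differed in cell type markers. All 6 markers of cortical excitatory neurons were called lower in the Acb in both kinds of wild-type RNA, with medians of -3.90 and -3.70, while 5 of 6 microglial markers and 4 and 3 of 6 astrocyte markers were called higher. Of oligodendrocyte markers 4 and 1 of 7 were called higher, of choroid plexus markers 2 and 3 of the 4 tested (medians 1.64 and 3.34), and of 9 medium spiny neuron markers 2 were called higher in each kind of RNA and 4 and 1 lower. Microglial markers summed to 170 to 193 CPM in whole lysates of the wild-type Acb and 92.9 to 114 CPM in those of the DS, and no cortical, microglial or astrocyte marker was at 0. Their part in the regional differences of Rab mRNAs was not tested.

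Rab9b, a neuronal paralog of Rab9, was higher in the Acb. In whole lysates it measured 108, 101 and 129 CPM in the wild-type Acb and 62.6, 49.3 and 49.6 CPM in the wild-type DS. Heavy polysomal fractions gave 154, 170 and 173 CPM in the Acb and 72.5, 65.9 and 55.4 CPM in the DS. The regions did not overlap in either. The log2 fold change was 1.09 ± 0.15 in whole lysates (adjusted p 2.83e-07, edgeR) and 1.37 ± 0.16 in heavy polysomal fractions (adjusted p 4.34e-05, edgeR). Rab9b was also the only member called higher in the Acb in all 4 regional comparisons, with 0.82 ± 0.14 in knockin whole lysates and 1.32 ± 0.19 in knockin heavy polysomal fractions. Its paralog Rab9 had 0.12 and -0.13 in the 2 kinds of wild-type RNA, not called.

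Rab27b measured 93.9, 100 and 84.1 CPM in whole lysates of the wild-type Acb and 54.4, 59.6 and 62.5 CPM in those of the DS. The regions were apart, with a log2 fold change of 0.69 ± 0.14 (adjusted p 0.000531, edgeR). In heavy polysomal fractions the value was 0.66 ± 0.20 (adjusted p 0.0499, edgeR). The call was lost without DS library 2 or 3 or Acb library 1 or 3 (adjusted p 0.130 to 0.203, edgeR). It was also lost with the trend on transcript length removed (0.39, adjusted p 0.253, edgeR). DESeq2 size factors (adjusted p 0.0559, edgeR) and edgeR's own filter on low counts (adjusted p 0.0573, edgeR) lost it too. In knockin whole lysates the log2 fold change was 0.51 ± 0.16 (adjusted p 0.0299, edgeR), with overlapping regions. That call was lost without any 1 library except Acb library 3 (adjusted p 0.0591 to 0.225, edgeR) and with all 24 libraries in one fit (adjusted p 0.122, edgeR).

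**Figure D4:**
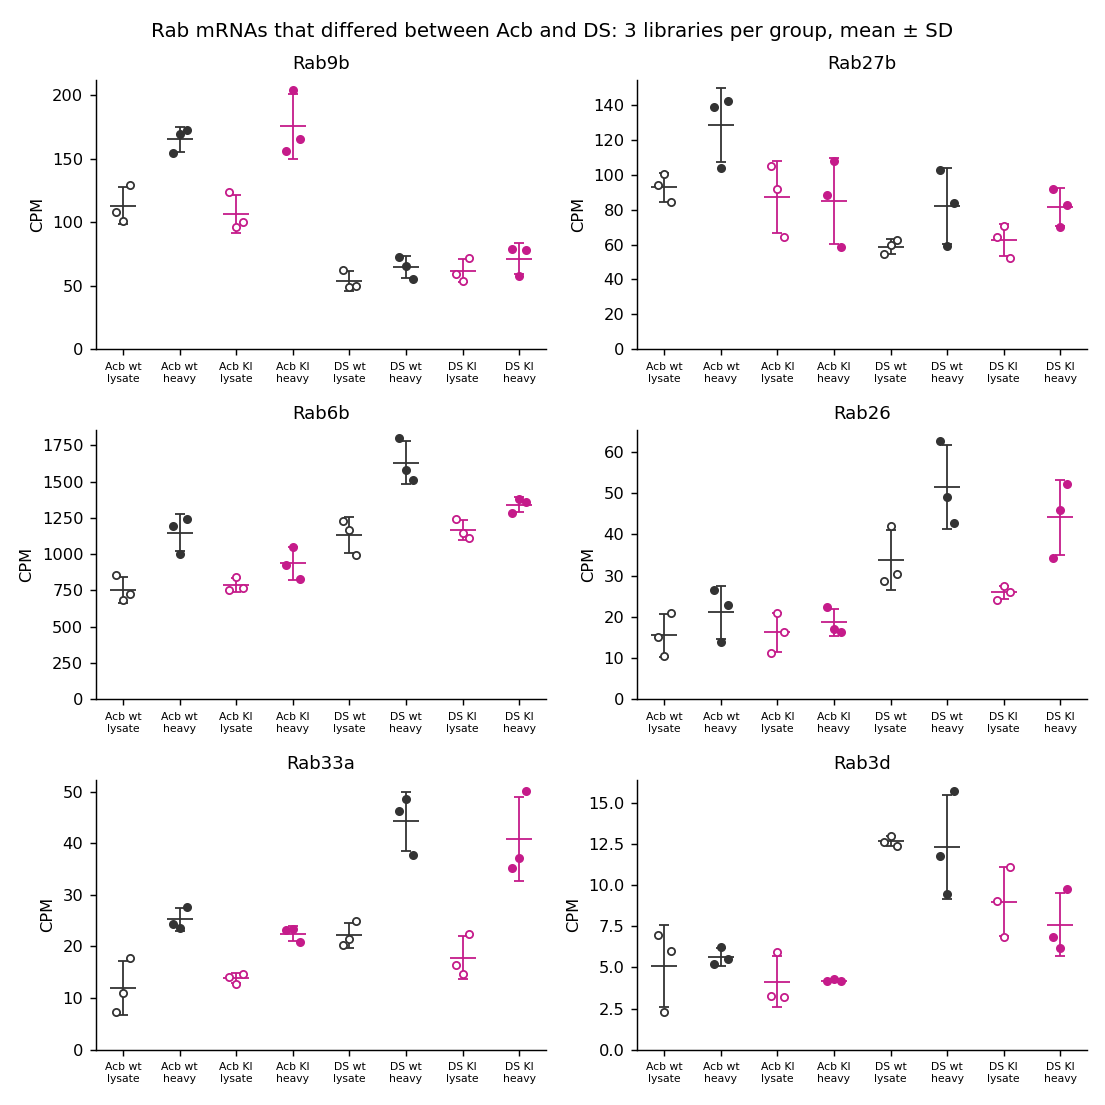
Levels in CPM (vertical axes, starting at 0) of Rab9b, Rab27b, Rab6b, Rab26, Rab33a and Rab3d in the 8 groups, open points for whole lysates and filled points for heavy polysomal fractions, black for wild-type and magenta for knockin, with horizontal bars and whiskers for the mean ± SD of 3 libraries. Rab9b lay higher in all 12 Acb libraries than in any DS library of the same kind of RNA, and Rab6b lower.

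Rab26, a Rab of synaptic and secretory vesicles, was lower in the Acb. In whole lysates of wild-type mice it measured 15.1, 10.4 and 20.9 CPM in the Acb and 28.8, 42.0 and 30.4 CPM in the DS. Heavy polysomal fractions gave 26.4, 13.8 and 23.0 against 62.7, 49.1 and 42.8 CPM. The regions were apart in both, with log2 fold changes of -1.10 ± 0.24 (adjusted p 0.000897, edgeR) and -1.27 ± 0.24 (adjusted p 0.00243, edgeR).

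Rab3d had the lowest log2 fold change of the members called in wild-type whole lysates, -1.28 ± 0.37 (adjusted p 0.0148, edgeR), at 6.99, 2.26 and 6.02 CPM in the wild-type Acb and 12.7, 13.01 and 12.4 CPM in the DS. In heavy polysomal fractions the value was -1.12 ± 0.30 (adjusted p 0.0271, edgeR), and the regions were apart in both. The call in whole lysates was lost without DS library 1 or 2 or Acb library 2 (adjusted p 0.0574 to 0.1005, edgeR), and that in heavy polysomal fractions without DS library 3 or any 1 Acb library (adjusted p 0.0652 to 0.128, edgeR). Its paralog Rab3a was lower in the Acb too, with -0.39 ± 0.12 and -0.54 ± 0.15 (adjusted p 0.0186 and 0.0305, edgeR). These calls of Rab3a were lost in whole lysates without DS library 2 or Acb library 1 or 2, and in heavy polysomal fractions without any 1 library except DS library 3 (adjusted p 0.0676 to 0.157, edgeR). The values of Rab3b and Rab3c were -0.15 and 0.04 in whole lysates, not called.

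Rab6b and Rab6a, Golgi Rabs, were lower in the Acb. Rab6b measured 855, 683 and 729 CPM in whole lysates of the wild-type Acb and 1231, 1169 and 994 CPM in those of the DS. The regions were apart, with a log2 fold change of -0.55 ± 0.11 (adjusted p 0.000167, edgeR). It was the only member called lower in all 4 regional comparisons, with values from -0.55 to -0.50. In wild-type heavy polysomal fractions, however, the call was lost without any 1 library (adjusted p 0.0523 to 0.175, edgeR) and with newer edgeR settings (adjusted p 0.0565, edgeR). Rab15 was called in wild-type whole lysates with -0.34 ± 0.11 (adjusted p 0.0329, edgeR). That call was lost without any 1 library (adjusted p 0.0556 to 0.103, edgeR) and with all 24 libraries in one fit (adjusted p 0.0994, edgeR). Rab6a gave -0.49 ± 0.11 in whole lysates of wild-type mice and -0.61 ± 0.09 in those of knockin mice (adjusted p 0.00106 and 7.77e-06, edgeR).

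Rab33a was lower in the Acb as well, with log2 fold changes of -0.89 ± 0.28 in wild-type whole lysates and -0.80 ± 0.19 in heavy polysomal fractions (adjusted p 0.0252 and 0.0121, edgeR). The second call was lost without Acb library 2 (adjusted p 0.0542, edgeR). In whole lysates DESeq2 did not call it (adjusted p 0.0538), and neither did edgeR without any 1 library except Acb whole lysate 3 (adjusted p 0.0536 to 0.198). The 5 members called lower in heavy polysomal fractions became 2, 1 and 2 without Acb library 1, 2 and 3, and the total of 7 became 3 each time. In whole lysates the total of 9 became 5 without Acb library 2.

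In knockin mice, 2 of 52 members were called higher in the Acb and 2 lower in whole lysates, against 4.84% and 6.03% of genes. In knockin heavy polysomal fractions, 1 of 53 was called higher and 10 lower, against 7.89% and 10.7% of genes. The lower members were led by Rab26 (-1.22 ± 0.21), Rab31 (-0.97 ± 0.21), Rab15 (-0.96 ± 0.17), Rab22a (-0.93 ± 0.23) and Rab33a (-0.84 ± 0.20), with adjusted p of 0.000400 to 0.00654 (edgeR). Rab22a and Rab31 are related Rabs of early endosomes, and the regions were apart for all 5.

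The comparison of genotypes asks whether Rab mRNAs depend on phosphorylation of rpS6. In whole lysates of the Acb, 0 of 52 members were called, against 0.0065% of genes, 0 had an unadjusted p under 0.05 and DESeq2 called 0. In whole lysates of the DS, 0 of 52 were called, against 0.122% of genes, and 4 had an unadjusted p under 0.05 (7.69%, against 9.07% of all genes). DESeq2 called Rab28 and Rab3a there, giving no adjusted p for 21 members. The share of all genes that DESeq2 called is not given here, so its calls cannot be set against it. In DS heavy polysomal fractions, 0 of 53 were called, against 0.044% of genes, 5 had an unadjusted p under 0.05 (9.43%, against 6.42% of all genes) and DESeq2 called 0.

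For Acb heavy polysomal fractions, 0 of 53 members were called by edgeR, against 0% of genes. The study, with DESeq2, reported mRNAs changed in both directions in these fractions, and lists Rab31 among genes found by its RNA-seq. An unadjusted p under 0.05 was reached by 13 (24.5%, against 21.7% of all genes), of which 12 were lower in the knockin. The split by direction over all genes at that p is not given. The median log2 fold change of the members was -0.26 against -0.01 over all genes. Over all genes the log2 fold change rose with coding length here (rank correlation 0.40), and members have short coding sequences. The part of length in these values was not tested. DESeq2 called 3, namely Rab31 and Rab4a lower and Rab14 higher. Here too the share of all genes called by DESeq2 is not given, so these calls are not read as a trait of the family. Rab14 had a log2 fold change of 0.45 ± 0.15 and Rab4a of -0.50 ± 0.17 (adjusted p 0.129 and 0.127, edgeR), both with genotypes apart.

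Rab31, of traffic between the trans-Golgi network and early endosomes, was the member with the lowest adjusted p between genotypes, and it was chosen after its values were seen. Its heavy polysomal level in the Acb was 111, 87.0 and 82.1 CPM in wild-type and 70.6, 54.4 and 36.4 CPM in knockin mice. In the DS it was 60.3, 65.5 and 110 CPM in wild-type and 101, 108 and 112 CPM in knockin mice. The genotypes were apart in the Acb and overlapped in the DS through the third wild-type library.

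The log2 fold change of Rab31 was -0.76 ± 0.21 in the Acb (adjusted p 0.106, edgeR) and 0.45 ± 0.20 in the DS (adjusted p 0.772, edgeR). The interaction of genotype and region was -1.20 ± 0.31 (adjusted p 0.0919, edgeR), and 0 of 53 members were called for it, against 0.00592% of genes. Of the members, 5 had an unadjusted p under 0.05 (9.43%, against 13.8% of all genes). DESeq2 called 1, Rab31 (adjusted p 0.0325), again with no share over all genes to set beside it. In whole lysates Rab31 measured 65.3 to 98.6 CPM in all 12 libraries. Oligodendrocyte markers summed to 4691 to 5776 CPM in wild-type and 4538 to 4994 CPM in knockin heavy polysomal fractions of the Acb. Between genotypes 0 of these 7 were called there, with log2 fold changes from -0.95 to 0.56 and a median of -0.55. Those of the 6 astrocyte markers ran from 0.27 to 0.57, with a median of 0.305 and 0 called. The part of either cell type in the value of Rab31 was not tested.

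**Figure D5:**
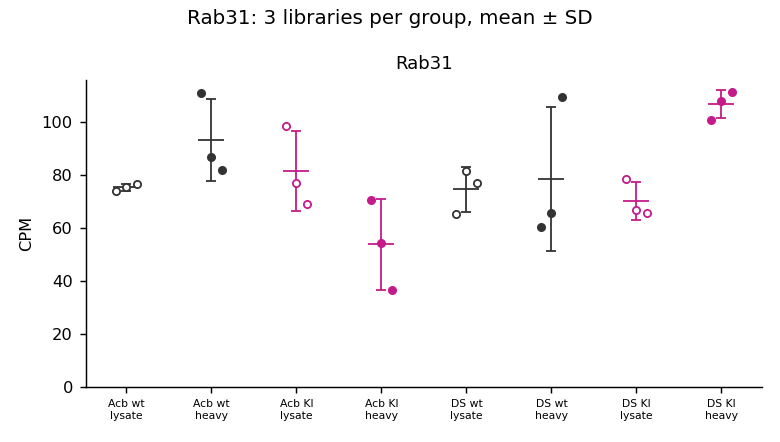
Level of Rab31 in CPM (vertical axis, starting at 0) in the 8 groups, open points for whole lysates and filled points for heavy polysomal fractions, black for wild-type and magenta for knockin, with horizontal bars and whiskers for the mean ± SD of 3 libraries. The knockin heavy polysomal libraries of the Acb lie at 36.4 to 70.6 CPM, below the wild-type ones at 82.1 to 111 CPM.

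The mRNAs of Rab partners were called in both directions between fractions. Over all genes, 13% were called higher and 12.9% lower in the wild-type Acb, and 12.8% and 11.5% in the wild-type DS, which is the background for the counts that follow. Of 40 GEFs tested in the wild-type Acb, 8 were called higher in heavy polysomal fractions and 7 lower, and in the DS 10 and 8 of 39. Subunits of the TRAPP complex, the GEF of Rab1, were among those higher, with 1.31 ± 0.17 for Trappc2 and 0.81 ± 0.15 for Trappc3 in the Acb. Madd, a GEF of Rab3, and Gapvd1, a GEF of Rab5, had -1.26 ± 0.16 and -1.38 ± 0.18, both called lower.

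Of 35 GAPs, 3 were called higher and 6 lower in the Acb, and 2 and 7 in the DS. Of 47 effectors, 4 were higher and 11 lower in the Acb, and 1 and 11 in the DS. The Rab3 effectors Rims1 and Rph3a had -0.76 ± 0.20 and -0.71 ± 0.14 in the Acb, and the motor Myo5a, recruited by Rab11 and Rab27, had -0.97 ± 0.14. The kinase Lrrk2 was lower, at -0.62 ± 0.19 in the Acb and -0.82 ± 0.19 in the DS, beside the counts of its Rab substrates above. Of 9 genes for GDI, escort and prenylation, 3 were higher and 1 lower in each region. Rabggtb, the catalytic subunit of geranylgeranyl transferase, was higher at 0.84 ± 0.16 in the Acb. These lists were read beside medians of 0.03 and 0.00 over all genes. No rule set which partners are named, and the effectors named all had values below 0. Over all genes the log2 fold change fell with coding length (rank correlation -0.46 in the wild-type Acb and -0.50 in the wild-type DS). Partners were not set beside genes of like coding length, and the part of length in their counts was not tested.

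Some members share sequence with other genes. Of the 50-base words of a member's longest coding transcript, over 10% occurred on the same strand in transcripts annotated to another gene for 4 members, Rab43 (89.4%), Rab4b (80.3%), Rab7 (14.4%) and Rab5b (13%), named after these values were seen. Their counts are less certain where such reads were split or discarded in counting. For 38 members no such word was shared.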

How the data were processed

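Reads of 24 libraries (8 groups of 3) were used as the raw counts per gene that the authors deposited. Per the labels and the methods of the study, the authors made stranded poly(A) libraries, aligned them to mm10 with TopHat2 2.0.13 and Bowtie2 2.2.3, dropped alignments over 3 mismatches and counted reads per gene with HTSeq 0.6.1p1 in union mode with regard to strand. The methods also report E. coli sequences in the libraries, for which the authors sequenced in several runs to reach enough mouse reads. The sources differ on how many mice were pooled for a replicate.

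Each comparison was fitted on the whole table, after removal of genes with fewer than 15 reads over its libraries, with edgeR 4.0.16 in R 4.3.3 (TMM, glmQLFit with legacy settings, quasi-likelihood F test, Benjamini-Hochberg adjustment, cutoff 0.05), and only the Rab family, its partners and the cell type markers were read. Standard errors were the log2 fold change over the square root of F. Levels (CPM) used TMM factors over all libraries. Depth was 9280589 to 34703044 reads per library, with medians of 19862908 for heavy polysomal libraries and 14889586 for whole lysates. No pair of replicates agreed within sampling noise. The fit was tested on simulated data. The study itself used DESeq2, and Xtail for the ratio of fractions.

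Members, role groups, partner lists, marker lists and alternatives were chosen with earlier results of these data known. Values were printed for every called member of a comparison, or, above 10, for the 5 in each direction with the largest difference and at least 50 reads on average, for the 10 members with the highest level per length and for the paralogs of Rab1, Rab3, Rab5, Rab6, Rab11 and Rab27. Lengths and sequences came from GENCODE M21 by Entrez identifier.

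By the methods of the study, whole lysate RNA and heavy polysomal RNA were taken from the same samples. That libraries of one number share a lysate is read from the numbering and is not stated there. Deviations of such pairs of libraries from group means correlated at -0.0439 to 0.0922, over 0.1 in 0 of 12 pairs. Alternatives were DESeq2 1.42.0, its size factors, 2 other filters, newer edgeR settings, the replicate block, all 24 libraries in one fit, a trend on transcript length removed (loess, span 0.5) and each library left out in turn.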

Additional observations from a re-analysis of the deposited data

How the results depend on the processing

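No called value of a named member changed sign under any alternative run. Between fractions, members called numbered 28 to 36 in the wild-type Acb, 29 to 33 in the wild-type DS, 18 to 24 in the knockin Acb and 20 to 27 in the knockin DS under the 8 alternatives that keep all libraries, and 23 to 33, 24 to 34, 12 to 22 and 20 to 26 with 1 library left out. Between regions, leaving out 1 library gave 5 to 8 in wild-type whole lysates, 3 to 7 in wild-type heavy polysomal fractions, 3 to 5 in knockin whole lysates and 8 to 12 in knockin heavy polysomal fractions. With the replicate block, for numbers not shown to pair samples across regions (2 of 3 correlations over 0.1), the 7 members called between regions in wild-type heavy polysomal fractions became 13, and the 0 called for genotype by region became 1. The split of those 7, 2 higher and 5 lower, was 1 and 6 with DESeq2 size factors, 4 and 4 with newer edgeR settings and 1 and 9 with the length trend removed, which moved the median of all genes to -0.14. In knockin heavy polysomal fractions, removing that trend gave 17 called in place of 11. Between genotypes, heavy polysomal fractions of the Acb gave 0 called in the report, 1 without a filter on low counts, 3 by DESeq2 and 2 with all 24 libraries in one fit. Whole lysates of the DS gave 2 by DESeq2, and genotype by region gave 1 without a filter, by DESeq2 and with all 24 libraries. Genotype comparisons gave 0 with any 1 library left out, and the interactions of genotype with fraction in the Acb and with region 0 to 1. The 1 was Rab31, for genotype by region without wild-type DS heavy polysomal library 3 (-1.52, adjusted p 0.0228, edgeR) or knockin Acb heavy polysomal library 1 (-1.48, adjusted p 0.0187, edgeR). The share of all genes called under each alternative is not given, so changes in these counts are not read as a trait of the family. The causes of these changes were not tested. Depth limits the rarest members, of which 3 were never tested.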
